A study of Mus musculus with 6 samples.

Results

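The 32 genes described here encode proteins that repair damaged DNA or hold the cell cycle while repair goes on. They were taken by symbol from the 53800 genes of the deposited count table, and each of the 32 symbols matched 1 row. They comprise 11 genes of homologous recombination, 3 of the Fanconi anemia pathway, 3 of mismatch repair, 11 of base excision and single-strand break repair and 4 checkpoint kinases. The RNA came from the mouse liver line NCTC 1469, which has a wild-type genotype, in 2 groups of 3 libraries after 6 days of culture. One group was kept on a random positioning machine, which turns the culture without pause so that gravity has no fixed direction, and is called simulated microgravity here. The other was kept at normal gravity. Both grew in the same medium with fetal bovine serum, and no melatonin treatment is given in the labels of the 6 samples, although the series is titled after it.

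Homologous recombination copies an intact sister chromatid to mend a double-strand break, and much of its machinery is made when cells replicate their DNA. Base excision repair removes single damaged bases through a glycosylase, a nuclease, a polymerase and a ligase, and mismatch repair corrects errors of the replication fork. The kinases ATM and ATR sense breaks and stalled forks and act through CHK2 and CHK1. Transcript levels of many of these genes are known to follow the share of cycling cells in a culture.

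The libraries held 30474792 to 34318208 counts in simulated microgravity and 31406875 to 32797684 counts at normal gravity. Normal gravity replicate 1 stood apart. Across 14509 tested genes it correlated with the other 2 normal gravity libraries at r = 0.948 to 0.950 (log2 CPM, read counts scaled to library size by TMM), below its r of 0.955 to 0.958 with the simulated microgravity libraries, while normal gravity replicates 2 and 3 correlated at 0.992. Fold changes of the 32 genes are therefore given with and without it. The samples are labelled hepatocytes, yet 8 of 10 hepatocyte markers, the albumin gene Alb among them, were without a count over the 6 libraries together, where 3 counts would be 0.0154 CPM. All 10 macrophage markers were present. Their sum was 10588 to 11877 CPM in simulated microgravity, 11018 CPM in normal gravity replicate 1 and 7024 and 7121 CPM in replicates 2 and 3. Without replicate 1 the groups did not overlap in this sum. The gap was widest in Lyz2, at 3901, 3516 and 4558 CPM in simulated microgravity and 969 and 1022 CPM in normal gravity replicates 2 and 3. Adgre1, Cd14 and Spi1 overlapped between the groups even without replicate 1. The other macrophage markers were higher in simulated microgravity than in normal gravity replicates 2 and 3. For Fcer1g the gap was small, at 207, 209 and 220 CPM against 203 and 206 CPM. In replicate 1, of these other markers, Tyrobp (444 CPM) and Fcer1g (429 CPM) were above every simulated microgravity library, and Lyz2 (3928 CPM) was within their range. Of 6 endothelial markers 2 were at 0, and their sum, mostly Vwf, was 45.5 to 58.3 CPM in simulated microgravity and 19.4 to 20.0 CPM at normal gravity. Of 8 fibroblast and stellate markers 1 was at 0 and 5, this one included, were below 1 CPM in every library. Their sum, mostly Pdgfra, was 69.0 to 73.0 CPM in simulated microgravity and 41.9 to 62.7 CPM at normal gravity. Pdgfrb was also higher in simulated microgravity. Col1a1 overlapped between the groups, at 3.18, 4.27 and 2.94 CPM in simulated microgravity and 5.31, 4.36 and 3.66 CPM at normal gravity. Lymphocyte and bile duct markers summed to under 1 CPM in each library. The part of these markers in the results was not tested. The count columns carry the letters R and C, which were read as random positioning machine and control, so every direction rests on that reading. The labels do not say that replicates were separate cultures, and p-values measure only the spread between these libraries. In bulk RNA, fewer cells of a type and less RNA per cell cannot be told apart.

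With all 6 libraries no repair or checkpoint gene passed an adjusted p of 0.05 in edgeR's quasi-likelihood test over all genes, in either direction, where 0.365% of all tested genes were lower and 1.16% higher in simulated microgravity. Their log2 fold changes nevertheless lay mostly on one side. The value was below 0 for 28 of the 32 genes (87.5%), against 52.3% of all tested genes, and the median was -0.31, against -0.02 over all tested genes. At an unadjusted p under 0.05, 6 of the 32 were lower (7.48% of all genes) and 0 were higher (8.55% of all genes). DESeq2 called 2, Neil3 and Ung, lower and 0 higher, where it called 2.26% of all genes it tested lower and 3.63% higher. Limma-voom called 0 in either direction (0.338% of all genes lower and 1.28% higher). With a trend of each library on gene length removed, 4 passed as lower, Exo1, Fanca, Ung and Neil3, and 0 as higher, where 1.70% of all genes were lower and 3.05% higher. All 32 genes passed the filter on low counts.

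Without normal gravity replicate 1, 21 of the 32 genes (65.6%) fell and none rose, where 15.1% of all tested genes fell and 15.7% rose. The log2 fold change was then below 0 for 28 of the 32 (87.5%), against 49.2% of all tested genes, with a median of -0.48, against 0.01 over all tested genes. By role, 8 of 11 recombination genes, 3 of 3 Fanconi anemia genes, 2 of 3 mismatch repair genes, 5 of 11 base excision and single-strand break genes and 3 of 4 checkpoint kinases fell. The 11 genes that did not pass were Brca2, Rad52, Xrcc3, Msh3, Ogg1, Mutyh, Nthl1, Polb, Xrcc1, Parp2 and Chek2. The comparison rests on 2 normal gravity libraries. When the trend on gene length was removed as well, 20 of the 21 still passed, where 14.1% of all genes were lower and 16.3% higher, and Bard1 did not pass (adjusted p = 0.109).

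**Figure D1:**
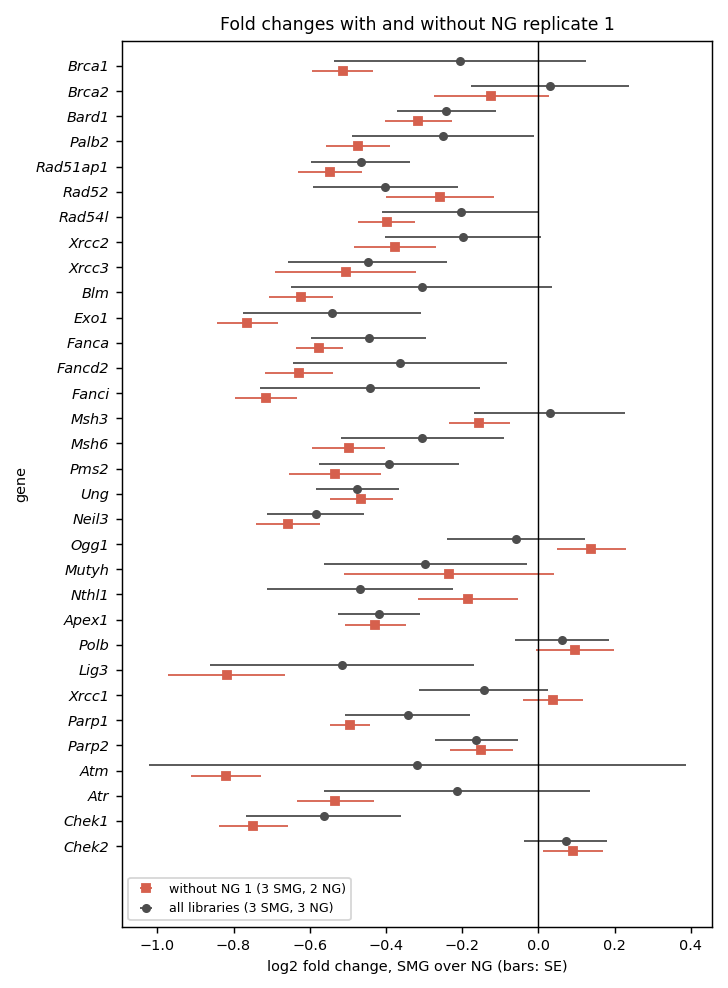
Log2 fold change of simulated microgravity (SMG) over normal gravity (NG) for each of the 32 genes, with circles for all libraries, squares for the comparison without NG replicate 1 and bars for the SE. Most squares lie left of 0 with short bars, down to -0.82 for Atm and Lig3, while for most genes the circles lie nearer to 0 with longer bars.

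The CPM values behind these fold changes are described next and are not separate evidence. In simulated microgravity 9 genes were below every normal gravity library, replicate 1 included, namely Rad51ap1, Xrcc3, Fanca, Ung, Neil3, Nthl1, Apex1, Parp2 and Chek1. That is 28.1% of the set, against 12.9% of all tested genes, and none lay above every normal gravity library (14.4% of all tested genes). Set against replicates 2 and 3 alone, 25 genes (78.1%, against 29.4% of all tested genes) were lower in every simulated microgravity library, and 2, Ogg1 and Chek2, were higher (29.6% of all tested genes). Brca2, Rad52, Mutyh, Polb and Xrcc1 overlapped between the groups even then.

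**Figure D2:**
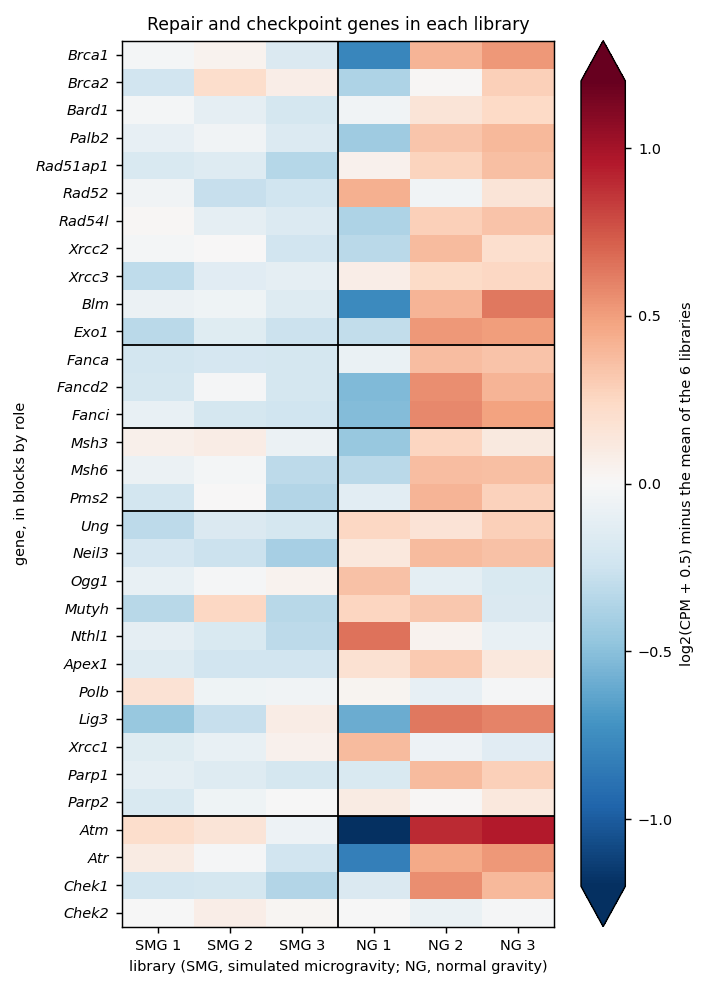
Level of each gene in each library as log2(CPM + 0.5) minus the mean of the 6 libraries, with SMG on the left, NG on the right and black lines between the roles in the order recombination, Fanconi anemia, mismatch repair, base excision and single-strand break repair, and checkpoint kinases. NG replicates 2 and 3 are red for most genes, the SMG libraries are pale, blue for most genes, and NG 1 goes from dark blue for Atm, Brca1, Blm and Atr to red for Nthl1.

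Over the 32 genes normal gravity replicate 1 deviated from its group in both directions, mostly downward. Its places among the libraries were counted for these genes only, with no share over all tested genes. The counts therefore cannot be read as particular to these genes. Replicate 1 was the lowest of the 3 normal gravity libraries for 22 of the 32 genes and the highest for 6. It lay below every simulated microgravity library for 13 of the 32 genes, above every one for another 13 and within their range for 6. Genes of more than 5000 bases were the most reduced in it: over the 9 such members the median of replicate 1 minus the mean of replicates 2 and 3 was -1.01 log2 units, over the 20 members of 2000 to 5000 bases it was -0.35, and over the 3 shorter ones, Ogg1, Nthl1 and Apex1, it was 0.50. All tested genes ran the same way, with medians of -0.67, 0.01 and 0.46 in these classes. Length did not order every member, since Brca2 with 10724 bases deviated by -0.52 and Atm with 10006 bases by -3.08. What sets this library apart was not tested.

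**Figure D3:**
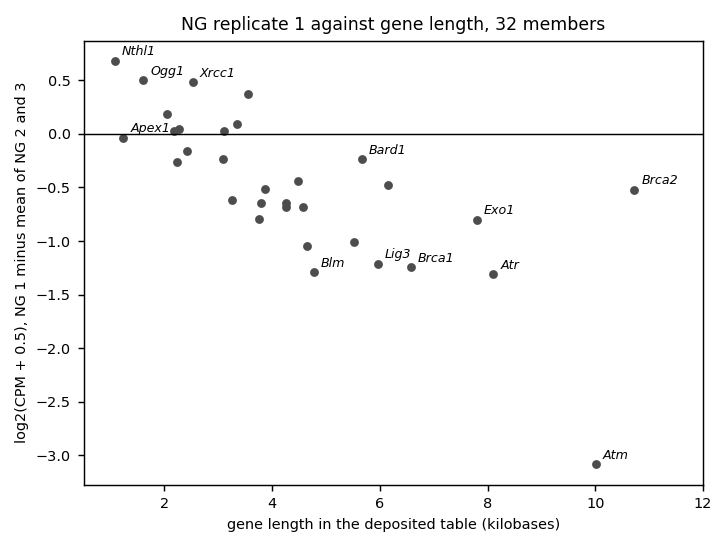
Deviation of NG replicate 1 from the mean of NG replicates 2 and 3, in log2(CPM + 0.5), against gene length in kilobases for the 32 genes. The points fall from 0.68 for Nthl1 to -3.08 for Atm, with Brca2, the longest gene, at -0.52.

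Among the recombination genes, Rad51ap1 showed the clearest separation. Its product takes part in the pairing of DNA strands. Rad51ap1 stood at 28.1, 28.6 and 25.1 CPM in simulated microgravity, against 33.1, 38.5 and 41.3 CPM at normal gravity. All 3 simulated microgravity libraries were below all 3 normal gravity libraries. The log2 fold change was -0.47 (SE 0.13, adjusted p = 0.153) with all libraries and -0.55 (SE 0.08, adjusted p = 0.00582) without replicate 1.

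Exo1, the exonuclease that resects DNA ends and also serves mismatch repair, had 19.7, 22.3 and 20.7 CPM in simulated microgravity and 20.2, 35.8 and 35.3 CPM at normal gravity. Replicate 1 sat among the simulated microgravity libraries and the other 2 normal gravity libraries lay well above them. It had the lowest log2 fold change of the recombination genes, -0.54 (SE 0.23, adjusted p = 0.331) with all libraries and -0.76 (SE 0.08, adjusted p = 0.00175) without replicate 1.

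Brca1, the tumor suppressor that directs breaks into recombination, had 75.4, 79.1 and 68.0 CPM in simulated microgravity and 44.5, 102 and 110.1 CPM at normal gravity. Its partner in a ubiquitin ligase, Bard1, had 21.5, 20.3 and 18.9 CPM in simulated microgravity and 21.3, 24.5 and 25.9 CPM at normal gravity. Palb2, which links BRCA1 to BRCA2, had 13.4, 13.9 and 12.8 CPM in simulated microgravity and 10.5, 18.2 and 18.9 CPM at normal gravity. In all 3, replicate 1 was the lowest normal gravity library and the groups overlapped through it alone. With all libraries the log2 fold changes were -0.21 for Brca1 (adjusted p = 0.826), -0.25 for Palb2 (adjusted p = 0.683) and -0.24 for Bard1 (adjusted p = 0.441). Without replicate 1 Brca1 fell by 0.51 on the log2 scale (adjusted p = 0.00584), Palb2 by 0.47 (adjusted p = 0.00945) and Bard1 by 0.32 (adjusted p = 0.0406). Brca2, a tumor suppressor of the recombination pathway, did not pass in either comparison. It had 23.6, 32.2 and 29.3 CPM in simulated microgravity and 21.3, 28.1 and 33.8 CPM at normal gravity, with log2 fold changes of 0.03 (adjusted p = 0.967) with all libraries and -0.12 (SE 0.15, adjusted p = 0.582) without replicate 1.

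Blm, the helicase lost in Bloom syndrome, had 41.5, 42.3 and 39.1 CPM in simulated microgravity and 25.5, 58.3 and 68.2 CPM at normal gravity. Rad54l, a DNA motor protein, had 38.7, 35.5 and 34.2 CPM in simulated microgravity and 29.4, 46.7 and 48.7 CPM at normal gravity. Xrcc2, a recombination gene, had 21.2, 21.7 and 18.4 CPM in simulated microgravity and 17.1, 28.2 and 24.9 CPM at normal gravity. Replicate 1 was below all simulated microgravity libraries in each, and replicates 2 and 3 were above them. With all libraries the log2 fold changes were -0.31 for Blm (adjusted p = 0.737), -0.20 for Rad54l (adjusted p = 0.703) and -0.20 for Xrcc2 (adjusted p = 0.711). Without replicate 1 Blm fell by 0.62 (adjusted p = 0.00358), Rad54l by 0.40 (adjusted p = 0.0112) and Xrcc2 by 0.38 (adjusted p = 0.0428) on the log2 scale. Rad54l overlaps Lrrc41 and Blm a pseudogene on the other strand. The counting is not stated to use strand, so reads may be shared with those genes.

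Rad52 and Xrcc3 had the lowest levels per gene length of the recombination genes. Xrcc3 had 1.74, 2.02 and 2.06 CPM in simulated microgravity and 2.42, 2.73 and 2.79 CPM at normal gravity. Its groups did not overlap, but it rested on 446 counts over the 6 libraries and did not pass, at -0.45 (SE 0.21, adjusted p = 0.369) with all libraries and -0.51 (SE 0.19, adjusted p = 0.0879) without replicate 1. Xrcc3 overlaps Klc1 on the other strand.

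The 3 Fanconi anemia genes act on crosslinks between DNA strands. Fanca, a subunit of the core complex, had 25.7, 26.0 and 25.8 CPM in simulated microgravity and 28.4, 38.9 and 38.2 CPM at normal gravity. The simulated microgravity libraries were nearly equal, and all normal gravity libraries lay above them. The change on the log2 scale was -0.45 (SE 0.15, adjusted p = 0.221) with all libraries and -0.58 (SE 0.06, adjusted p = 0.00184) without replicate 1, and it passed with all libraries once the trend on gene length was removed (-0.49, adjusted p = 0.0336). FANCD2 and FANCI form the pair that the core complex marks with ubiquitin. Fancd2 had 34.9, 40.0 and 35.0 CPM in simulated microgravity, against 27.9, 59.7 and 53.7 CPM at normal gravity. Fanci had 24.7, 22.6 and 22.1 CPM in simulated microgravity, against 18.2, 39.3 and 36.9 CPM at normal gravity. Both had replicate 1 below every simulated microgravity library. With all libraries Fancd2 was at -0.36 (adjusted p = 0.605) and Fanci at -0.44 (adjusted p = 0.533), and without replicate 1 Fancd2 fell by 0.63 (adjusted p = 0.00435) and Fanci by 0.72 (adjusted p = 0.00209) on the log2 scale. Fanca overlaps Zfp276 and Fanci overlaps Polg on the other strand.

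In mismatch repair, MSH6 and MSH3 serve to recognise small and larger mismatches. Msh6 had 59.7, 62.0 and 50.4 CPM in simulated microgravity and 50.3, 81.4 and 80.9 CPM at normal gravity. Pms2, whose product cuts the strand to be corrected, had 21.8, 25.6 and 19.9 CPM in simulated microgravity and 23.3, 34.0 and 31.0 CPM at normal gravity. With all libraries Msh6 was at -0.30 (adjusted p = 0.564) and Pms2 at -0.39 (adjusted p = 0.369). Without replicate 1 Msh6 fell by 0.50 (adjusted p = 0.0121) and Pms2 by 0.53 (adjusted p = 0.0206) on the log2 scale. Msh3 had 41.7, 42.6 and 38.1 CPM in simulated microgravity and 28.9, 47.8 and 43.2 CPM at normal gravity, a smaller gap to replicates 2 and 3 that did not pass (-0.15, SE 0.08, adjusted p = 0.198), and with all libraries it was at 0.03 (adjusted p = 0.968). Pms2 overlaps Rsph10b and Gm42421 on its own strand, and Msh6 overlaps Fbxo11 on the other, so their reads may be shared.

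Base excision repair starts with the glycosylases, which cut out the damaged base, and of these Neil3 and Ung had the 2 lowest p-values of the 32 genes with all libraries. Neil3, active on oxidised bases in single-stranded DNA and crosslinks, had 24.1, 23.2 and 20.9 CPM in simulated microgravity, against 30.4, 36.2 and 35.6 CPM at normal gravity. Ung, which removes uracil, had 19.8, 21.9 and 21.4 CPM in simulated microgravity, against 29.6, 27.9 and 30.3 CPM at normal gravity. Neither gene had overlapping groups, and for Ung replicate 1 lay between the other normal gravity libraries. Neil3 had the lowest log2 fold change of the 32 genes with all libraries, -0.58 (SE 0.13, adjusted p = 0.0851), and -0.66 (SE 0.08, adjusted p = 0.00322) without replicate 1. Ung changed by -0.48 (SE 0.11, adjusted p = 0.1) with all libraries and -0.46 (SE 0.08, adjusted p = 0.00956) without replicate 1. In DESeq2 with all libraries Neil3 (adjusted p = 0.0128) and Ung (adjusted p = 0.0149) passed, as they did in edgeR after removal of the length trend (adjusted p = 0.0495 and 0.0424).

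The glycosylases that act on 8-oxoguanine and its mispairs, Ogg1 and Mutyh, and the pyrimidine glycosylase Nthl1 did not pass in any of the comparisons. Ogg1 had 13.2, 14.0 and 14.5 CPM in simulated microgravity and 18.1, 13.0 and 12.3 CPM at normal gravity, so its sign turned on replicate 1: the log2 fold change was -0.06 (SE 0.18) with all libraries and 0.14 (SE 0.09, adjusted p = 0.301) without it. Nthl1 had 6.48, 6.12 and 5.51 CPM in simulated microgravity and 11.3, 7.22 and 6.53 CPM at normal gravity. Its groups did not overlap, yet the gap to replicate 3 was small (-0.47, SE 0.24, adjusted p = 0.43 with all libraries, and -0.18, SE 0.13, adjusted p = 0.339 without replicate 1). Ogg1 overlaps Camk1 on the other strand.

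Apex1, the nuclease that cuts the strand at the emptied site, had 31.6, 30.1 and 30.0 CPM in simulated microgravity, against 40.1, 44.0 and 38.5 CPM at normal gravity. Its groups did not overlap, and the value was -0.42 (SE 0.11, adjusted p = 0.128) with all libraries and -0.43 (SE 0.08, adjusted p = 0.0112) without replicate 1. Polb, the polymerase that fills the gap, had 24.2, 20.7 and 20.8 CPM in simulated microgravity and 21.8, 20.0 and 21.1 CPM at normal gravity, and the groups overlapped at 0.06 on the log2 scale (SE 0.12, adjusted p = 0.863) with all libraries and 0.10 (SE 0.10, adjusted p = 0.527) without replicate 1. Lig3, the ligase that seals it, had 33.1, 37.5 and 48.6 CPM in simulated microgravity and 30.0, 71.2 and 69.3 CPM at normal gravity. Replicate 1 was below the simulated microgravity libraries, which themselves ranged widely. Lig3 was at -0.52 (adjusted p = 0.544) with all libraries and fell by 0.82 on the log2 scale without replicate 1 (SE 0.15, adjusted p = 0.0112). Xrcc1, the scaffold that holds LIG3, had 37.9, 39.6 and 43.5 CPM in simulated microgravity and 55.0, 40.4 and 38.3 CPM at normal gravity, with -0.14 (SE 0.17, adjusted p = 0.749) with all libraries and 0.04 (SE 0.08, adjusted p = 0.751) without replicate 1. Apex1 overlaps Tmem55b and Lig3 overlaps Rffl on the other strand.

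Parp1, the main sensor of strand breaks that makes poly(ADP-ribose) chains, had the highest level per gene length of the 32 genes. It had 187, 182 and 175 CPM in simulated microgravity and 178, 264 and 247 CPM at normal gravity. Replicate 1 fell inside the simulated microgravity range, and the change was -0.34 (SE 0.16, adjusted p = 0.38) with all libraries and -0.49 (SE 0.05, adjusted p = 0.00169) without it. Its relative Parp2 had 30.6, 33.5 and 34.8 CPM in simulated microgravity and 37.4, 35.2 and 38.1 CPM at normal gravity. The groups of Parp2 did not overlap, but the gap was narrow (-0.16, SE 0.11, adjusted p = 0.544 with all libraries, and -0.15, SE 0.08, adjusted p = 0.221 without replicate 1).

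Of the 2 effector kinases of the checkpoints, Chek1 fell without replicate 1 and Chek2 did not pass, and the difference between their changes was not tested. Chek1, the kinase downstream of ATR, had 20.7, 20.8 and 18.8 CPM in simulated microgravity, against 21.4, 35.8 and 31.8 CPM at normal gravity. Its groups did not overlap, with replicate 1 just above the simulated microgravity libraries, and the log2 fold change was -0.56 (SE 0.20, adjusted p = 0.25) with all libraries and -0.75 (SE 0.09, adjusted p = 0.00257) without replicate 1. Chek2, the kinase downstream of ATM, had 19.5, 20.7 and 19.9 CPM in simulated microgravity and 19.5, 18.4 and 19.3 CPM at normal gravity. All 6 libraries were close, and the change was 0.07 (SE 0.11, adjusted p = 0.815) with all libraries and 0.09 (SE 0.08, adjusted p = 0.432) without replicate 1.

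Atm had 68.1, 65.4 and 56.1 CPM in simulated microgravity and 12.7, 109.6 and 114 CPM at normal gravity, while Atr had 65.3, 60.4 and 51.9 CPM in simulated microgravity and 34.3, 83.7 and 88.1 CPM at normal gravity. In both kinases replicates 2 and 3 were above, and replicate 1 below, every simulated microgravity library. With all libraries Atm had a log2 fold change of -0.32 with the largest SE of the 32 genes, 0.70 (adjusted p = 0.881), and without replicate 1 it fell by 0.82 (SE 0.09, adjusted p = 0.00197). Atr, which overlaps Gm16794 on the other strand, was at -0.21 (SE 0.35, adjusted p = 0.83) with all libraries and fell by 0.53 (SE 0.10, adjusted p = 0.0116) without replicate 1. For Atm, Atr and Brca1 the log2 fold changes were near 0 when another normal gravity library was left out, at -0.0046, -0.05 and -0.06 without replicate 2 and 0.04, 0.0024 and 0.01 without replicate 3.

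**Figure D4:**
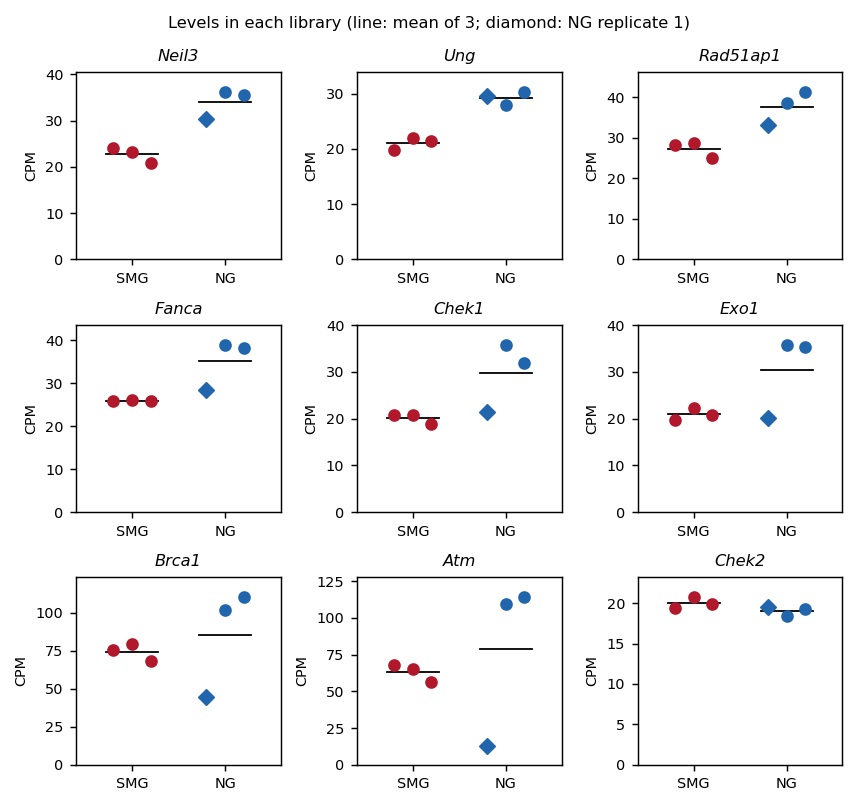
Level in CPM of 9 genes in each library, SMG left and NG right, with a line at the mean of 3 libraries and a diamond for NG replicate 1. In the first row the NG libraries all lie above the SMG libraries, for Brca1 and Atm the diamond lies far below, and for Chek2 all 6 points lie between 18.4 and 20.7 CPM.

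On a scale that allows genes to be compared, CPM per kilobase of gene length, Parp1 and Apex1 had the highest levels in both groups, also without normal gravity replicate 1. Parp1 averaged 46.8 ± 1.57 in simulated microgravity and 59.3 ± 11.8 at normal gravity (SD, n = 3 each), and Apex1 24.7 ± 0.71 and 33.0 ± 2.27. Without replicate 1 the normal gravity means were 66.0 for Parp1 and 33.3 for Apex1. In simulated microgravity Xrcc1 (16.0 ± 1.14) and Parp2 (15.2 ± 1.00) followed and did not differ beyond their spread. At normal gravity the next places turned on replicate 1: with it Xrcc1 averaged 17.6 ± 3.61 and Parp2 17.0 ± 0.69, and without it the order was Msh6 at 19.1, Rad51ap1 at 17.9, Parp2 at 16.9, Brca1 at 16.1 and Xrcc1 at 15.6. The lowest levels were those of Mutyh (2.09 ± 0.57 in simulated microgravity and 2.56 ± 0.50 at normal gravity), Rad52 (1.64 ± 0.16 and 2.17 ± 0.38) and Xrcc3 (0.80 ± 0.07 and 1.09 ± 0.08), and without replicate 1 their normal gravity means were 2.46, 1.97 and 1.14. Among the checkpoint kinases Chek2 averaged 8.80 ± 0.28, Atr 7.31 ± 0.84, Atm 6.31 ± 0.63 and Chek1 5.30 ± 0.29 in simulated microgravity, against 8.38 ± 0.25, 8.48 ± 3.68, 7.87 ± 5.72 and 7.82 ± 1.96 at normal gravity. Without replicate 1 the order at normal gravity was another, with Atm at 11.2, Atr at 10.6, Chek1 at 8.91 and Chek2 at 8.28, and both values of Atm (10.9 and 11.4) lay above both of Chek2 (8.09 and 8.47).

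Many repair genes are known targets of E2F factors, which switch on genes of DNA synthesis, so the promoter windows of the members were searched for sequence they share. Windows of 250 bases before to 50 after the start were in the RefSeq table (GRCm38.p6) for 28 of the 32 genes. The E2F words TTTGGCGC, TTTCCCGC, TTTGGCGG and TTTCGCGC, on either strand, occurred in 7 of the 28 (25.0%), against 2.4% of 27025 windows of all genes and 4.5% of 9657 windows of tested genes. They were Brca2, Bard1, Msh3, Msh6, Nthl1, Chek1 and Chek2. The word CCAAT was in 16 (57.1%, against 39.7% of the windows of tested genes), GGGCGG in 22 (78.6%, against 63.0%), and TTTGAA or TTTAAA, the words of the cell cycle element CHR, in 2 (7.1%, against 19.5%). Of the 18 genes that fell without replicate 1 and had a window, 3 held an E2F word, as did 4 of the 10 that did not pass. A match is a string of letters and does not show binding.

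The windows with an E2F word upstream of the start are shown for position -240 to -121, 5′ to 3′ on the strand of the gene, with the words in capitals. Bard1 fell without replicate 1, and Brca2, Msh3, Nthl1 and Chek2 did not pass. In Msh3 the words TTTGGCGC and GCGCGAAA overlap.
Bard1 (chr1:71103093-71103212, minus strand): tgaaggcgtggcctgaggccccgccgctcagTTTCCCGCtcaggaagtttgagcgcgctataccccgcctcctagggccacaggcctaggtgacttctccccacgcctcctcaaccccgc
Brca2 (chr5:150522381-150522500, plus strand): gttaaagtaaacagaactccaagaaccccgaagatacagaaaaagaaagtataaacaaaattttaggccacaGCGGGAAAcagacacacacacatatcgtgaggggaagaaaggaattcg
Msh3 (chr13:92355124-92355243, minus strand): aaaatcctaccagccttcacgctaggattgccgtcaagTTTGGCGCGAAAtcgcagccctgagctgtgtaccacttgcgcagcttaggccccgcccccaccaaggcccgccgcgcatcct
Nthl1 (chr17:24632442-24632561, plus strand): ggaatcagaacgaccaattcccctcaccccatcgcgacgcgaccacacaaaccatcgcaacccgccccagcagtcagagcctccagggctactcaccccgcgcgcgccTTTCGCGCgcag
Chek2 (chr5:110839743-110839862, plus strand): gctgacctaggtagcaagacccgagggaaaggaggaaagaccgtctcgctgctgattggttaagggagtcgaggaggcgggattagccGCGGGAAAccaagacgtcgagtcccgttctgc

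Rad51ap1 and Fanca, among the 9 genes whose groups did not overlap with all libraries, held none of the E2F words and are shown as examples. Of the others among the 9, Nthl1 and Chek1 held an E2F word. CCAAT was in Xrcc3, Nthl1 and Apex1 and was absent from Ung, Neil3, Parp2 and Chek1. The last 120 bases of Rad51ap1 and Fanca before the start are given with CCAAT and its reverse complement ATTGG in capitals, 1 in Rad51ap1 and 2 in Fanca.
Rad51ap1 (chr6:126939588-126939707, minus strand): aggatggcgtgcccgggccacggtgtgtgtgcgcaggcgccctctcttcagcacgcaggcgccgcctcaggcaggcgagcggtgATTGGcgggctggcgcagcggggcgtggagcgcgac
Fanca (chr8:123318577-123318696, minus strand): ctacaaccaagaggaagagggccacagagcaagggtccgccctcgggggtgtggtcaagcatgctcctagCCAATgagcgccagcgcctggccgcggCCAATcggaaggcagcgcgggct

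The rest of the repair network was described with lists of other genes of each pathway. With all libraries 1 gene of these repair lists passed, the DNA polymerase delta subunit gene Pold2, which had 30.5, 37.2 and 36.5 CPM in simulated microgravity and 56.9, 57.7 and 61.2 CPM at normal gravity (-0.75, SE 0.12, adjusted p = 0.047). Without replicate 1, 8 of 15 other mismatch repair and gap-filling genes fell and 1 rose, 11 of 22 other checkpoint genes fell and 0 rose, 6 of 14 end joining genes fell and 1 rose, and 9 of 28 other recombination genes fell and 1 rose. In the other Fanconi anemia genes 3 of 15 fell and 0 rose, in nucleotide excision repair 4 of 22 fell and 0 rose, and in the other base excision genes 3 of 19 fell and 2 rose. The last 3 lists, with 20.0%, 18.2% and 15.8% lower, were near the 15.1% of all tested genes. Xrcc6, a subunit of the Ku complex that holds broken ends, and Tipin, a fork protection gene, fell by 0.64 (adjusted p = 0.0025) and 0.59 (adjusted p = 0.00192) on the log2 scale without replicate 1, and were at -0.60 (adjusted p = 0.0646) and -0.56 (adjusted p = 0.0639) with all libraries.

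Genes of DNA replication and proliferation were counted in the same way. Without replicate 1, 34 of 42 fell and 2 rose (median -0.48), and with all libraries 0 fell and 1 rose (median -0.36). The 1 gene that passed with all libraries, the transcription factor gene E2f2, rose, with 48.1, 49.8 and 48.0 CPM in simulated microgravity against 30.6, 28.3 and 28.1 CPM at normal gravity (0.75, SE 0.10, adjusted p = 0.0293). Gins2, of the replicative helicase, had 16.1, 22.3 and 18.0 CPM in simulated microgravity and 31.6, 32.5 and 29.5 CPM at normal gravity (-0.73, SE 0.15, adjusted p = 0.0812, and 0.0145 without replicate 1). Of the genes in these lists, 5 stand in more than 1, and the part of proliferation in the levels of the repair genes was not tested.

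**Figure D5:**
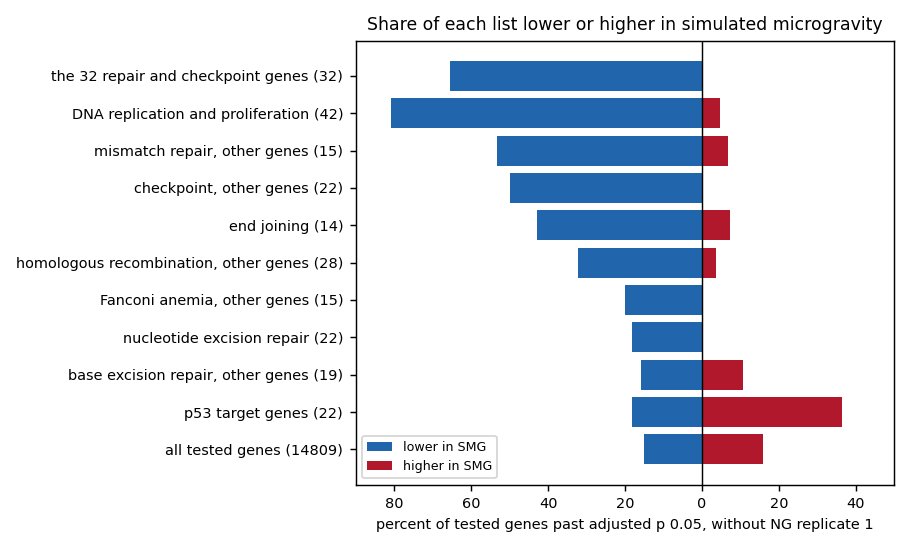
Percent of the tested genes of each list that were lower (left, blue) or higher (right, red) in SMG at an adjusted p under 0.05 without NG replicate 1, with the number tested in parentheses. The 32 genes had 65.6% lower and none higher, and all tested genes 15.1% lower and 15.7% higher.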

How the data were processed

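The deposited table holds raw counts per gene, which per the file headers and values the authors left unnormalized, with gene lengths. Reads went through fastp 2.0 and HISAT2 2.1.0, as listed per the submitters' processing notes. Counter, strand setting, build and annotation are not given in the sources used here. Chromosome, start and end were equal to GENCODE M21 (GRCm38) for 97.0% of 53619 shared genes. Of the lines below the header, 1 held no gene. Library totals are given with the results. Floors of 3 counts cover counting error only.

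The test was that of edgeR 4.0.16 in R 4.3.3 (filterByExpr, TMM, quasi-likelihood test, two-sided, Benjamini-Hochberg over all tested genes, threshold 0.05). Log2 fold changes have simulated microgravity on top, and the SE is the fold change over the root of F. CPM is scaled by TMM, except for markers. Alternatives were other size factors, no filter, DESeq2 1.42.0, limma-voom (limma 3.58.1), each library left out, a replicate block, and removal of a trend on gene length (natural spline, 4 degrees of freedom, as offsets). Removing that trend without normal gravity replicate 1 was added after seeing the data. The procedure was also run on simulated counts, in which normal gravity replicate 1 departed from the others by a gene length trend at most. No result here rests on that run.

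The 32 genes and the lists were chosen with earlier results of these data known. Every member may be named, with values in each library for those past the threshold with or without replicate 1 and for the extremes of each role, and of the other lists the 2 genes of lowest p. Xrcc3, Ogg1, Nthl1, Xrcc1 and Parp2 were given values after these were seen. Some overlapping genes are not reported here.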

Additional observations from a re-analysis of the deposited data

How the results depend on the processing

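No member passed, in either direction, with DESeq2 size factors, library size alone, no filter, limma-voom or the replicate block. The count of members lower was 2 in DESeq2, 4 with the length trend removed, 20 with that trend removed and normal gravity replicate 1 left out, and 0 to 21 over the comparisons that leave out 1 library, with 21 without normal gravity replicate 1 and 0 in the other 5. The members' median log2 fold change kept its sign in all alternatives (-0.48 to -0.20). The count over all genes was 125 without a filter, 962 in DESeq2, 689 with the length trend removed, 4492 with that trend removed and normal gravity replicate 1 left out, 0 with the replicate block and 3 to 4559 with 1 library left out, against 221 with all (3, 24 and 12 without simulated microgravity replicates 1, 2 and 3, and 4559, 22 and 23 without normal gravity replicates 1, 2 and 3). Whether same-numbered libraries were paired was not settled. Deviations from the group means correlated at -0.10, 0.02 and -0.12 for same-numbered libraries and at -0.09 to 0.12 for the others. Normal gravity replicate 1 shapes the deviations of its whole group, so these values cannot decide on pairing. For the block only its loss of calls is given. The sign turned for 8 members, with 0 of the turned values past the threshold. With library size alone Brca2 was at -0.0128 and Msh3 at -0.015. With the length trend removed Brca2 was at -0.0645, Msh3 at -0.0008 and Ogg1 at 0.0164, and with normal gravity replicate 1 left out as well Msh3 was at -0.1131 and Ogg1 at 0.0717. Atm was at 0.2141 in limma-voom and 0.1073 with the replicate block. Over the comparisons that leave out 1 library, Brca1 ranged over -0.5133 to 0.0148, Brca2 over -0.1235 to 0.1961, Msh3 over -0.155 to 0.1766, Ogg1 over -0.1632 to 0.1382, Polb over -0.0163 to 0.1052, Xrcc1 over -0.2444 to 0.0388, Atm over -0.8198 to 0.0437 and Atr over -0.5328 to 0.0024. The causes were not tested. Depth limits Xrcc3 (446 counts) and Mutyh (923 counts) most.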

Other observations

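Of 22 tested target genes of p53, the factor that the checkpoint kinases activate, 0 passed with all libraries in edgeR. Before adjustment, 4 were up and 2 down in edgeR (p under 0.05), where all tested genes gave 8.55% up and 7.48% down. In DESeq2 3 passed as higher and 1 as lower, beside 3.63% and 2.26% of all genes in that test. Without normal gravity replicate 1, 8 rose and 4 fell in edgeR, against 15.7% and 15.1% of all tested genes. Plk2, a kinase gene, had 534, 521 and 513 CPM in simulated microgravity and 359, 415 and 389 CPM at normal gravity (0.43, adjusted p = 0.101, and 0.00224 without replicate 1 in edgeR). Sesn1, a stress-induced regulator of growth, had 23.6, 20.8 and 22.4 CPM in simulated microgravity and 31.7, 29.0 and 30.2 CPM at normal gravity (-0.45, adjusted p = 0.119, and 0.0138 without replicate 1 in edgeR).

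Cdkn1a, which encodes the cell cycle inhibitor p21, was chosen after its values were seen. It had 35.5, 36.5 and 39.1 CPM in simulated microgravity and 34.1, 8.34 and 9.72 CPM at normal gravity, so that normal gravity replicate 1 stood beside the simulated microgravity libraries. Its log2 fold change was 1.09 (adjusted p = 0.403) with all libraries and 2.04 (adjusted p = 0.000189) without that library in edgeR. The death receptor gene Fas, chosen in the same way, had 59.5, 62.1 and 65.7 CPM in simulated microgravity and 47.9, 29.6 and 28.7 CPM at normal gravity (0.82, adjusted p = 0.138 with all libraries, and 1.10, adjusted p = 0.00029 without replicate 1 in edgeR).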
